A study of Mus musculus with 24 samples.

Results

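Complement is a set of blood proteins that tag microbes and damaged cells and recruit immune cells to them. It is started by C1q, which binds antibodies or surfaces, by mannose-binding lectins, which bind sugars, or by the slow self-activation of C3, and all of these routes meet at the cleavage of C3 and end in a pore built from C5 to C9. Hepatocytes make most of the circulating components, whereas C1q comes mainly from macrophages and, in the brain, from microglia. The genes described here are 9 complement components, namely the chains of C1q (C1qa, C1qb and C1qc), C3, C4b, Cfb (factor B), Mbl2 (mannose-binding lectin C), C8a and C9. They were taken by name, through the accession of each array probe, and not by their values, and they hold 11 of the 55681 probes and 9 of the 21368 named genes.

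The levels come from 24 1-colour Agilent mouse arrays of liver, brain, heart and muscle RNA from 3 WT and 3 Rap1 KI/KI male mice, with 1 array per mouse and tissue. Rap1 KI/KI mice are homozygous for the I312R change in RAP1, a protein of the telomere complex, which was introduced by CRISPR/Cas9, and the line was back-crossed to C57BL6 mice, which the study's methods name as C57BL/6N. Mice are numbered within a genotype by their animal numbers, as WT1, WT2 and WT3 and as KI1, KI2 and KI3. The age was 5 months for WT1 and KI1 and 2 months for the rest. Brain and liver RNA was extracted with another kit than heart and muscle RNA, which cannot be told apart from the tissue. A level is a log2 processed signal from which the log2 75th percentile of its array was subtracted, so 0 is that percentile. A probe was tested between genotypes in a tissue if its signal was well above background, by the flag of the scanning software, on at least 3 of 6 arrays. Levels of different probes are not set against each other, since each probe has its own response. With whole tissues, fewer cells of a type and less RNA per cell cannot be told apart.

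The 75th percentile of the intensities ran from 470.7 to 1389 over the 24 arrays, and 56.5% to 72.7% of the probes were well above background. The tissue labels were checked against defining markers by level, since most of these markers were also detected in other tissues. All 8 hepatocyte markers were higher in every liver than on any other array, and 5 of 6 neuron and oligodendrocyte markers in every brain. Of the striated muscle markers, Ckm, Acta1 and Myh6 were higher in every heart and muscle than in any liver or brain, Tnni3 had a mean level of 8.48 in heart and -4.63 in muscle, and Myh4 one of -6.09 in heart and 9.17 in muscle. The arrays lay on 3 slides, the first with all livers and the brains of WT1 and KI1, the second with the other brains and the hearts of WT1, WT2, KI1 and KI2, and the third with the other hearts and all muscles. Some arrays stood apart. The brain of KI3 was high in macrophage and interferon-induced genes, the hearts of KI1 and KI3 and the muscles of WT1 and KI2 in fat cell genes, the brain of WT1 and the heart of WT2 in hepatocyte genes, the muscle of KI1 in neutrophil genes, and the muscle of KI3 in the neuronal gene Rbfox3.

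Promoter sequence from RefSeq (GRCm38.p6) was available for 6 of the 9 genes. C8a was measured almost only in the liver, and C3 was highest there but present in all tissues. C1qb and C1qc varied together from mouse to mouse. The 250 bases before the start of C8a, C3, C1qb and C1qc are shown. They lie at chr4:104876399-104876648, chr17:57228137-57228386, chr4:136886201-136886450 and chr4:136892915-136893164, all on the minus strand, and are written 5′ to 3′ along the gene. Capitals mark matches on either strand to GTTAAT, a half-site of the liver factor HNF1, to TTNCNNAA, which C/EBP factors can bind, and to GAGGAA, the core bound by the macrophage factor PU.1.
C8a promoter: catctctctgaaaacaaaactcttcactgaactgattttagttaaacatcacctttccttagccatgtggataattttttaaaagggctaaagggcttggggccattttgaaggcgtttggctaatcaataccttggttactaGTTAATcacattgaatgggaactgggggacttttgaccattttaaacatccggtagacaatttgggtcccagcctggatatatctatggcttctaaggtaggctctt
C3 promoter: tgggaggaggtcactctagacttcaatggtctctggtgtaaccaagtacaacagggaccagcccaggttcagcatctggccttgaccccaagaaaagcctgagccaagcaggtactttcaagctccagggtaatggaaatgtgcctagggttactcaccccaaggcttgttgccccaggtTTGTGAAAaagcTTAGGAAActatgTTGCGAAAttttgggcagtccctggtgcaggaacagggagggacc
C1qb promoter: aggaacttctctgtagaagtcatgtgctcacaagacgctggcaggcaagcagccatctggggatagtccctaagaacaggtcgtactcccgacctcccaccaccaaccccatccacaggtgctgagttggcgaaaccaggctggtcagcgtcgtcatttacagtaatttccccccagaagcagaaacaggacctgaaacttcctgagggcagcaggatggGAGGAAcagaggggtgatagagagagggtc
C1qc promoter: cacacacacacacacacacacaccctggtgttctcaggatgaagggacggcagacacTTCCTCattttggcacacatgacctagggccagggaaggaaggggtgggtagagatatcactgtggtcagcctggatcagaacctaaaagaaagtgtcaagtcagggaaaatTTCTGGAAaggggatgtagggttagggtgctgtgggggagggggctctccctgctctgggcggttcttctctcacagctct

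The C8a promoter held 1 match to GTTAAT, which 6.43% of all 32851 promoters in the table hold in the same window. The C3 promoter held 3 matches to TTNCNNAA within 70 bases of the start, and 36.8% of promoters hold at least 1. C1qb and C1qc each held 1 match to GAGGAA, as 23.3% of promoters do, and C1qc also held 1 to TTNCNNAA. Of the promoters not shown, C9 held 1 match to TTNCNNAA and Mbl2 held none of these motifs. TATAAA, found in 12.4% of promoters, was in none of the 6, and no matches to different motifs overlapped. A match is a description of the letters only.

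Across the tissues, all members but C1qc, which had an order of its own given below, fell into 3 groups. C8a, C9 and Mbl2 were high in the liver and far lower elsewhere. C9 was at background in the other tissues and C8a in brain and muscle, whereas C8a was above it on 5 heart arrays. Mbl2 was above background on 5 brain, 6 heart and 3 muscle arrays. C3, C4b and Cfb were highest in the liver but measured on every array. C1qa and C1qb were lower in muscle than in the other tissues, among which no difference passed with all arrays. These differences were tested in 1 limma fit of all 24 arrays, in which a comparison counts as passed at an adjusted p under 0.05. All 6 members that are not C1q chains were higher in the liver than in each of the other 3 tissues, and 23.3% of all probes in the fit passed in the same way. In single pairs, 7 of 9 members were higher in liver than in brain, 6 of 9 than in heart and 9 of 9 than in muscle, where 45.6%, 34.4% and 34.9% of probes were.

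**Figure D1:**
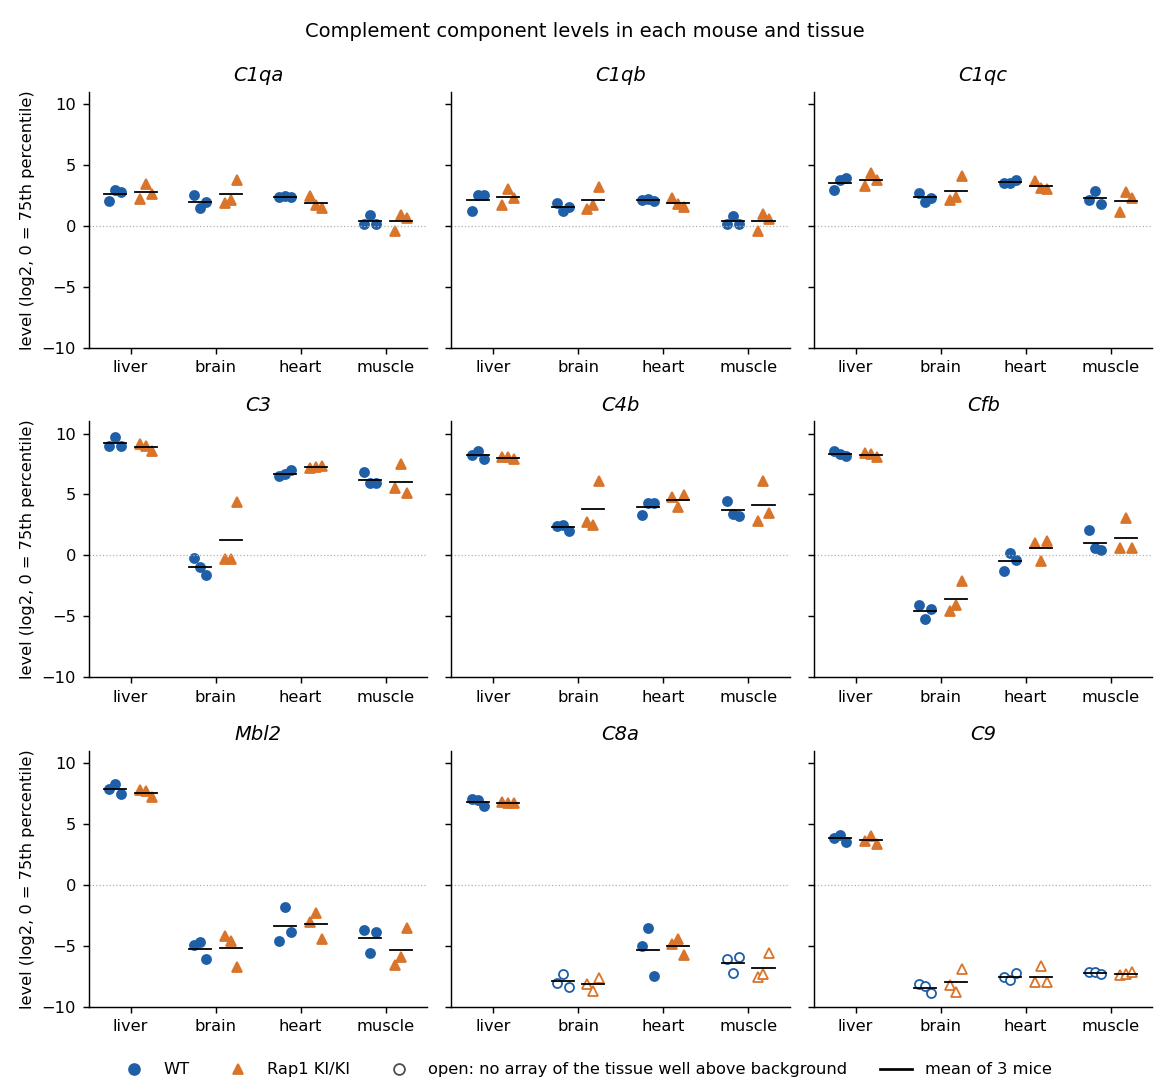
Level of each member (log2, with 0 at the 75th percentile of its array) in each WT mouse (circles) and Rap1 KI/KI mouse (triangles), by tissue, with bars at the mean of 3 mice and open symbols where no array of the tissue was well above background. Each tissue is shown by the member's brightest probe there, which for C8a is another probe in the brain than in liver, heart and muscle. The liver levels of Mbl2, C8a and C9 lie above 3 and their levels elsewhere below -1, the brain of KI3 lies above the others for C3 and C4b, and the C1q chains lie between -0.44 and 4.34 in all tissues.

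C9 (NM_013485), the last component to enter the pore, had a mean liver level of 3.75 ± 0.31 (SD, n = 6), with the lowest mouse at 3.34 and the highest at 4.12. It was not well above background on any of the 18 arrays of brain, heart and muscle. Its level in the liver was at least 1012-fold higher than in the brain, at least 679-fold higher than in the heart and at least 498-fold higher than in the muscle (limma adjusted p = 8.47e-18, 1.96e-17 and 1.95e-17). Each bound divides the liver mean by the mean over the other tissue's arrays of the dimmest signal that still counted as above background, or of the gene's own signal where that was higher.

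C8a (NM_146148), a chain of the pore component C8, had a liver level of 6.78 ± 0.18 (SD, n = 6). It was not well above background in the brain or the muscle, and the liver was above them by at least 8241-fold and 4053-fold. In the heart it was well above background on 5 of 6 arrays, at -5.03, -3.51 and -7.47 in WT1 to WT3 and -4.82, -4.47 and -5.79 in KI1 to KI3. The heart of WT2 was the highest, and the genotypes overlapped. A second C8a probe, with a liver level of 3.60 to 3.89, was not well above background on any heart array.

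Mbl2 (NM_010776), a lectin that starts the lectin pathway, had a liver level of 7.72 ± 0.37 (SD, n = 6). Brain, heart and muscle lay lower by 12.93 (standard error 0.59), 11.04 and 12.59, with adjusted p of 1.24e-13, 2.22e-12 and 2.4e-13. In the heart it read -4.57, -1.78 and -3.84 in WT1 to WT3 and -3.02, -2.27 and -4.46 in KI1 to KI3. WT2 was again the highest heart, followed by KI2 and KI1. The mean level of 8 hepatocyte markers in the same hearts was -2.31, -0.03 and -2.40 in the WT mice and -1.29, -0.93 and -2.17 in the Rap1 KI/KI mice, highest in WT2 too. Of the 3 brightest, Alb (2.95) and Fgb (0.72) were highest in WT2, and Ahsg was 3.81 in WT2 and 4.00 in KI3. In the muscle, Mbl2 was well above background on 3 of 6 arrays, at its highest in KI3 (-3.58), WT1 (-3.73) and WT3 (-3.86), and the hepatocyte markers were highest in the same 3 mice (-1.64, -2.10 and -1.76). In the brain, the mean of the 4 tested hepatocyte markers was highest in WT1 (0.06, beside -3.34 to -2.11 in the other brains). Mbl2 read -4.93 in that brain, lower than in KI1 (-4.19), KI2 (-4.59) and WT2 (-4.73). The part of hepatocyte RNA in these low readings was not tested. Heart exceeded muscle for Mbl2 by 1.55 (adjusted p = 0.039) and for C8a by at least 1.02-fold (adjusted p = 0.024), and both calls were lost without WT2 (log2 differences 0.85 and 0.78). The C8a call was also lost without WT1, KI1 or KI2, and the Mbl2 call without WT3, KI1 or KI2.

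C3 (NM_009778), the protein on which all routes of activation converge, had a liver level of 9.06 ± 0.36, a heart level of 6.99 ± 0.36, a muscle level of 6.13 ± 0.87 and a brain level of 0.17 ± 2.13 (SD, n = 6 each). The liver exceeded the brain by 8.89 (standard error 0.60), or 473-fold, with an adjusted p of 5.9e-11, and by 9.67, or 813-fold, without the brain of KI3. It exceeded the heart by 2.07 (adjusted p = 0.0052) and the muscle by 2.93 (adjusted p = 0.00025). The heart and the muscle, neighbours in this order, differed by 0.87 (adjusted p = 0.26, and 0.041 without the brain of KI3), and both were above the brain, by 6.82 and 5.95. The liver and heart arrays shared no slide, and with slide as a covariate the liver minus heart difference was 2.81 with an adjusted p of 0.061.

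C4b (NM_009780), which is cleaved after C1q or a lectin has bound and helps to form the enzyme that cleaves C3, was at 8.12 ± 0.25 in liver, 4.28 ± 0.60 in heart, 3.91 ± 1.21 in muscle and 3.04 ± 1.52 in brain (SD, n = 6 each). The liver was above the other tissues by 5.08, 3.84 and 4.21 for brain, heart and muscle (adjusted p of 6.73e-08, 4.55e-06 and 1.29e-06). No pair among heart, muscle and brain passed, the closest being brain against heart at -1.24 (adjusted p = 0.054). Without the brain of KI3, the brain was lower than the heart by 1.81 (adjusted p = 0.00132) and lower than the muscle by 1.45 (adjusted p = 0.00695). Without the muscles of WT1 and KI2, the brain was at -1.24 against the heart (adjusted p = 0.023) and at -0.18 against the muscle (adjusted p = 0.77), and with slide as a covariate at -0.81 and -0.06 (adjusted p of 0.31 and 0.96). C4b has a near-identical copy, C4a, and signal from the pair cannot be told apart here, so its values are uncertain.

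Cfb (NM_008198), which joins C3b in the alternative-pathway enzyme, spanned the widest range of the members measured on every array, with liver at 8.31 ± 0.18, muscle at 1.23 ± 1.07, heart at 0.05 ± 0.94 and brain at -4.09 ± 1.06 (SD, n = 6 each). The liver exceeded the brain by 12.40 (standard error 0.48), the heart by 8.27 and the muscle by 7.08, with adjusted p of 1.03e-14, 8.13e-12 and 8.04e-11. The muscle and the heart differed by 1.18 (adjusted p = 0.052), and both exceeded the brain, by 5.32 and 4.14. Without the hearts of KI1 and KI3, muscle exceeded heart by 1.70 (adjusted p = 0.031), without the brain of KI3 by 1.18 (adjusted p = 0.030), and without KI1 or KI3 by 1.49 and 1.54 (adjusted p of 0.042 and 0.016). Without the muscles of WT1 and KI2 the difference was 0.52 (adjusted p = 0.36), and with slide as a covariate 0.84 (adjusted p = 0.40).

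The C1q chains showed another order. C1qa (NM_007572) was at 2.69 ± 0.53 in liver, 2.29 ± 0.80 in brain, 2.15 ± 0.42 in heart and 0.38 ± 0.53 in muscle (SD, n = 6 each). Muscle was lower than liver by 2.31, than brain by 1.90 and than heart by 1.77 (adjusted p of 5.21e-06, 4.94e-05 and 0.00026), whereas no pair among the other tissues passed. Without the brain of KI3, liver exceeded brain by 0.70 (adjusted p = 0.041), and without KI1 it exceeded heart by 0.82 (adjusted p = 0.038). C1qb (NM_009777) followed the same pattern, with muscle lower by 1.84, 1.46 and 1.60 (adjusted p of 5.66e-05, 0.00057 and 0.00053). C1qc (NM_007574) differed in that the brain, at 2.59 ± 0.76, lay below the liver (3.69 ± 0.48) by 1.10 (adjusted p = 0.0052) and below the heart (3.44 ± 0.31) by 0.85 (adjusted p = 0.030), and did not differ detectably from the muscle (2.18 ± 0.62, adjusted p = 0.27). After quantile normalization the brain was lower than liver and heart by 0.42 and 0.55 for C1qc and neither pair passed, nor did either with the z-scores (adjusted p of 0.10 and 0.12). Brain against heart also no longer passed without WT2, WT3, KI1 or KI2, or without the hearts of KI1 and KI3. With slide as a covariate, added after seeing the data, C1qb was lower in muscle than in liver and brain by 1.82 and 1.25 (adjusted p of 0.079 and 0.11), and C1qc lower in muscle than in liver and heart by 1.70 and 1.23 (adjusted p of 0.11 and 0.068) and higher in heart than in brain (adjusted p = 0.115), so that these 5 pairs did not pass, whereas C1qa stayed past the threshold in its 3 muscle pairs.

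Among the tissues other than liver, 5 of the 8 members above background in at least 1 of the pair passed between brain and heart (C1qc, C3, Cfb, C8a and Mbl2, all higher in heart), 4 of 7 between brain and muscle (C3 and Cfb higher and C1qa and C1qb lower in muscle) and 5 of 8 between heart and muscle (C1qa, C1qb, C1qc, C8a and Mbl2, all higher in heart). Of all probes, 67.7%, 70.2% and 43.5% passed in these pairs in either direction. The heart to muscle count was 3 without WT2 or without KI2, and 2 (C1qa and C1qb) with slide as a covariate, where the difference of Mbl2 was 0.72 (adjusted p = 0.54) beside 1.55 (adjusted p = 0.039) without it.

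The rest of the complement system was looked at with written lists, of which 42 genes were on the arrays. In the classical and lectin list, 11 of 12 genes were higher in the liver than in every other tissue, among them C2 and the proteases C1ra, C1s1 and Masp2, and Fcnb was too dim to enter the fit. In the alternative list, Cfp and Cfi were among those that did so, and Cfd (factor D, or adipsin, which cleaves factor B and is known as a fat cell product) did not, with mean levels of 8.20 in muscle, 4.87 in heart, 1.46 in liver and, not above background, -8.01 in brain. In the terminal list, 4 of 5 genes were highest in the liver (Hc, which encodes C5, C6, C8b and C8g), and C7 was not. Among inhibitors, 8 of 12 were higher in the liver than in the other 3 tissues, including C4bp and Serping1. Of the 9 receptors, 1 was, Vsig4, a receptor of Kupffer cells, and Itgam, a chain of complement receptor 3, was lower in the liver than in each other tissue.

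Between genotypes, no member passed in any tissue. At an adjusted p of 0.05, limma called 0 of the 9, 7, 8 and 7 members tested in liver, brain, heart and muscle, and 0% of all probes in each tissue. C8a in brain and muscle and C9 in brain, heart and muscle were not tested because they were at background. At an unadjusted p under 0.05 limma called 1 member, C3 in the heart, and 0 in liver, brain and muscle, against 2.13%, 2.62%, 7.51% and 2.48% of all probes. The same gene was the 1 member whose genotypes did not overlap, where 5.85%, 7.75%, 14.7% and 6.45% of probes did not overlap in liver, brain, heart and muscle. The counts of members were near these shares. With 3 mice in each genotype, an exact permutation test reaches 0.1 at the least.

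**Figure D2:**
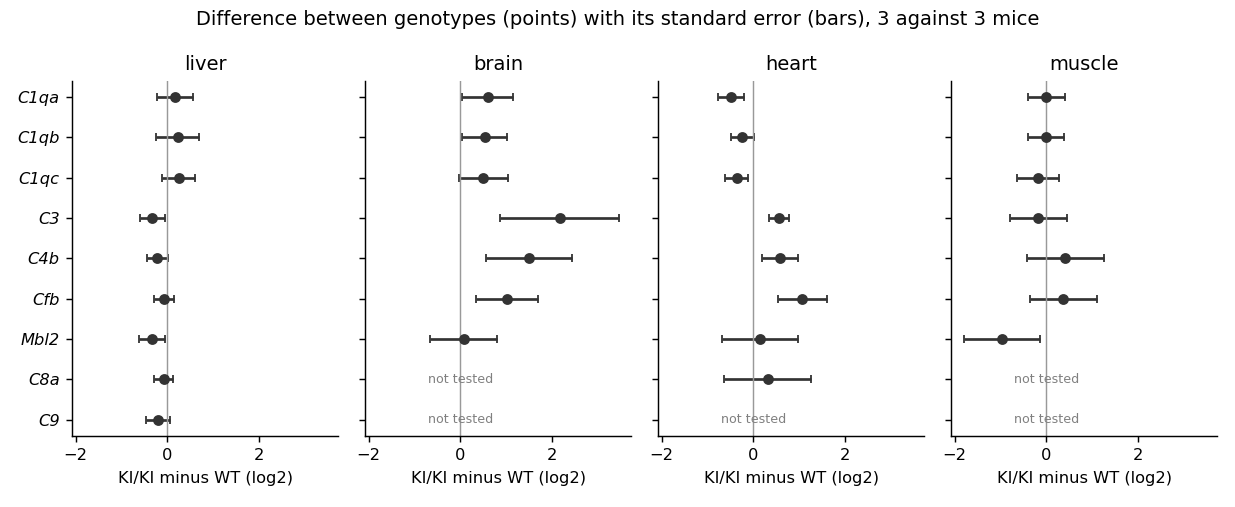
Difference in level between Rap1 KI/KI and WT mice (log2, points) with the standard error of the limma fit (bars) for each member in each tissue, 3 mice per genotype. The standard errors in the brain are widest for C3 and C4b, at 1.30 and 0.95, and the differences in the liver lie between -0.34 and 0.25.

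In the liver, the differences were small. They ran from -0.34 (Mbl2, standard error 0.28) to 0.25 (C1qc, standard error 0.36), with a median over the 9 members of -0.08 beside -0.01 over all probes. C3 read 8.98, 9.70 and 8.99 in WT1 to WT3 and 9.11, 8.98 and 8.59 in KI1 to KI3, and the genotypes overlapped. C1qa read 2.02, 2.98 and 2.81 in the WT livers and 2.23, 3.48 and 2.61 in the Rap1 KI/KI livers. The 5-month-old mice, WT1 and KI1, had the lowest level of each C1q chain in their genotype in the liver. The 11 macrophage markers averaged 1.48 and 1.56 in these livers and 1.69 to 2.25 in the other 4. The order of the C1q chains was not the same in all tissues. In the brain, WT1 was the highest WT mouse for each chain and KI1 the lowest Rap1 KI/KI mouse. In the heart, KI1 was the highest Rap1 KI/KI mouse for each. Whether any of these levels accompany age was not tested.

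In the brain, all 7 tested members had positive differences, with a median of 0.60 beside -0.05 over all probes, and KI3 was the highest brain for 6 of them. C3 read -0.19, -0.93 and -1.63 in WT1 to WT3, -0.33 and -0.28 in KI1 and KI2, and 4.38 in KI3. KI3 lay 4.57 above the next mouse, WT1, or 23.7-fold, whereas the other 5 brains spanned 1.44. C4b read 2.38, 2.52 and 1.97 in the WT brains and 2.78, 2.50 and 6.10 in the Rap1 KI/KI brains, so that KI3 was 10.0-fold above KI1. Cfb read -4.10, -5.25 and -4.43 in the WT brains and -4.54, -4.09 and -2.11 in the Rap1 KI/KI brains, with KI3 3.94-fold above KI2.

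The C1q chains of KI3 lay less far above the other brains. C1qa read 2.52, 1.47 and 1.96 in WT1 to WT3 and 1.88, 2.10 and 3.77 in KI1 to KI3. C1qb read 1.93, 1.26 and 1.57 in the WT brains and 1.40, 1.75 and 3.22 in the Rap1 KI/KI brains. C1qc read 2.74, 2.01 and 2.27 in the WT brains and 2.12, 2.34 and 4.07 in the Rap1 KI/KI brains. The other 5 brains overlapped for each chain, and KI3 was 2.38-fold above WT1 for C1qa, 2.44-fold for C1qb and 2.50-fold for C1qc. Mbl2 went the other way, with its lowest reading, -6.73, in KI3. Over all probes, KI3 was the highest brain at 16.5%. The brain slides coincided with age, and the C3, C4b and Cfb differences were -0.15, 0.40 and -0.44 between the 5-month-old mice and 3.33, 2.05 and 1.74 between the 2-month-old mice, which include KI3. Without KI3, the brain differences were 0.61 for C3, 0.35 for C4b, 0.28 for Cfb and between -0.11 and 0.01 for the C1q chains, and 0 members passed. A second C3 probe also set KI3 apart, at 3.02 beside -1.15 to -0.52 in the other brains.

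Other genes moved with these in the brain of KI3. All 11 macrophage and microglia markers were highest there, with a mean level of 2.95 beside 0.89 to 1.38 in the other brains. Their brightest members, Csf1r, Ctss and Cx3cr1, read 5.88, 5.47 and 4.13 in KI3. Of the interferon-induced genes, 11 of 12 were highest in KI3 (mean level 0.81 beside -1.19 to -0.61), the brightest being Isg15, Ifit3 and Irf1. Of the astrocyte markers 4 of 5 were highest there (4.30 beside 3.19 to 3.78). The neuron and oligodendrocyte markers were lowest in KI3, at 4.95 beside 5.14 to 5.40. Siglech, from a separate list of microglia markers, was 6.34 in KI3, within the 6.04 to 6.90 of the other brains. The part of these cells in the members' levels was not tested.

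Some complement genes beyond the members were also high in the brain of KI3. In the classical and lectin list 7 of 8 tested genes were highest there, and 6 of 8 receptors. The counts were lower in the other lists, at 4 of 11 inhibitors, 2 of 4 terminal genes and 1 of 2 alternative genes. C2, the partner of C4b, read -0.01, -0.22 and -0.12 in WT1 to WT3 and 0.30, 0.12 and 1.61 in KI1 to KI3. C3ar1, the receptor of the C3a fragment, read -1.95 in KI3 and -4.62 to -4.02 in the other brains. C5ar1, the receptor of C5a, read -3.80 beside -8.02 to -6.20. Serping1, which inhibits C1r and C1s, read 3.02 in KI3 and 0.06 to 1.00 elsewhere. Over the pathway lists, 5 of 33 tested genes had all Rap1 KI/KI brains above all WT brains and 0 had them below, or 15.2% beside 7.75% of all probes without overlap. Among these were C2, Serping1 and the receptors Cd93 and Itgax, with unadjusted limma p of 0.097, 0.092, 0.086 and 0.11 and adjusted p of 1. In liver, heart and muscle, 0%, 10.8% and 3.03% of the tested genes of these lists had no overlap. The shares of all probes there were 5.85%, 14.7% and 6.45%. The genotype effect of each tissue was also set against the mean effect of the others, where 0 members and 0% of probes passed for each tissue. The lowest p among members was that of C3 in the brain, with a difference of 2.15 (standard error 0.98), a limma p of 0.041 and a limma adjusted p of 1.

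**Figure D3:**
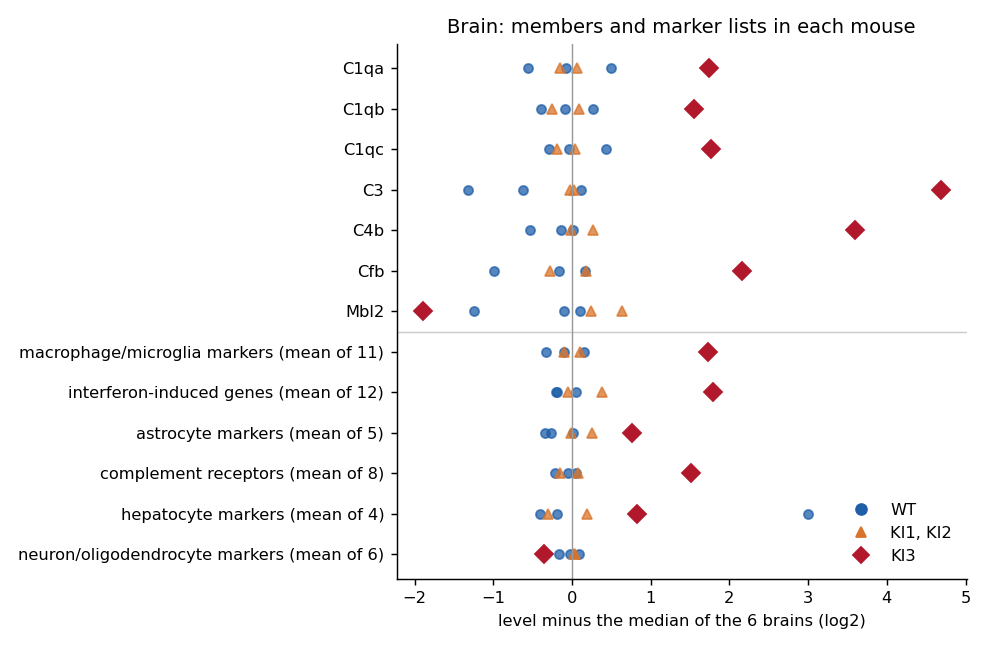
Level of 7 members and the mean level of 6 gene lists in each brain, as the difference from the median of the 6 brains (log2), with KI3 as diamonds, the other Rap1 KI/KI mice as triangles and WT mice as circles. KI3 is the highest for each member except Mbl2 and for macrophage, interferon-induced, astrocyte and receptor genes, and the brain of WT1 is the highest for hepatocyte markers.

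In the heart, C3 was the member with the smallest p. It read 6.48, 6.64 and 7.02 in WT1 to WT3 and 7.17, 7.28 and 7.37 in KI1 to KI3, so every Rap1 KI/KI heart was above every WT heart. The difference was 0.56 (standard error 0.22) or 1.47-fold, with a limma p of 0.041, an adjusted p of 0.65 and an exact permutation p of 0.1 (two-sided, n = 3 per genotype). It was 0.66 on the slide that held WT1, WT2, KI1 and KI2 and 0.35 on the slide with WT3 and KI3. The genotypes overlapped at the second C3 probe, with 5.32, 5.47 and 6.03 in the WT hearts and 5.99, 5.88 and 6.06 in the Rap1 KI/KI hearts. Across the alternatives tried, the adjusted p of C3 in the heart ran from 0.45 to 1.

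Cfb and C4b in the heart were highest in KI3 and KI1. Cfb read -1.28, 0.20 and -0.39 in WT1 to WT3 and 1.03, -0.45 and 1.17 in KI1 to KI3, a difference of 1.07 (standard error 0.55, adjusted p = 0.65). C4b read 3.32, 4.30 and 4.33 in the WT hearts and 4.78, 3.95 and 4.99 in the Rap1 KI/KI hearts, a difference of 0.59 (standard error 0.39, adjusted p = 0.70). In both genes KI2 lay among the WT hearts and WT1 was the lowest. Fat cell markers had the same mice at their ends, with a mean level of 3.96 in KI1 and 5.18 in KI3, -1.76 in WT1 and 1.40 to 1.56 in the other 3 hearts. Adipoq, the gene of the fat hormone adiponectin, read -4.23, 0.72 and -0.15 in the WT hearts and 4.05, 0.42 and 4.86 in the Rap1 KI/KI hearts. Cfd read -0.12, 4.68 and 4.53 in the WT hearts and 6.99, 4.97 and 8.14 in the Rap1 KI/KI hearts, without overlap. The difference was 3.67 (standard error 1.41), with a limma p of 0.036, an adjusted p of 0.65 and an exact permutation p of 0.1. The part of fat cells in these heart levels was not tested.

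The C1q chains in the heart had negative differences for C1qa, C1qb and C1qc of -0.48, -0.24 and -0.36, none of which passed. C1qa read 2.35, 2.45 and 2.37 in the WT hearts and 2.48, 1.74 and 1.50 in the Rap1 KI/KI hearts, so that KI1 was the highest and KI2 and KI3 the lowest. Vtn, which encodes vitronectin, an inhibitor of pore assembly, was below all WT hearts in the Rap1 KI/KI hearts (2.98, 3.14 and 1.89 against 3.80, 3.53 and 3.55). The difference was -0.95, with a limma p of 0.032, an adjusted p of 0.65 and an exact permutation p of 0.1.

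In the muscle, C3, C4b and Cfb had the same highest mouse, KI2, and the same second, WT1. C3 read 6.81, 5.90 and 5.92 in WT1 to WT3 and 5.56, 7.47 and 5.09 in KI1 to KI3. C4b read 4.49, 3.38 and 3.24 in the WT muscles and 2.82, 6.10 and 3.44 in the Rap1 KI/KI muscles. Cfb read 2.07, 0.64 and 0.42 in the WT muscles and 0.64, 3.03 and 0.58 in the Rap1 KI/KI muscles. The genotypes overlapped in each gene, and the differences of -0.17, 0.42 and 0.38 were smaller than their standard errors of 0.62, 0.83 and 0.74. Without KI2, the differences of C4b and Cfb turned negative, to -0.57 and -0.43.

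The 6 fat cell markers had mean levels of 5.33 in the muscle of KI2, 4.45 in that of WT1 and 1.12 to 3.04 in the other 4, the brightest being Fabp4, Cidec and Adipoq. C2 was also highest in KI2 (4.13) and WT1 (2.90), beside 1.74 to 2.38 in the others. Interferon-induced genes averaged 0.93 in the muscle of KI2 and -0.11 to 0.27 in the others. The part of fat cells in these levels was not tested. Neutrophil markers averaged 3.13 in the muscle of KI1 and -4.44 to 0.07 in the others. Of these, S100a8 read -3.11, -1.20 and -3.16 in the WT muscles and 3.74, -1.12 and 1.08 in the Rap1 KI/KI muscles, without overlap (limma p = 0.016, adjusted p = 0.94, exact permutation p = 0.1). C3 and C4b in KI1 were among the 2 lowest of the 6 muscles. The C1q chains did not follow the order of the fat cell markers, since C1qa was 0.91 in KI2, 0.88 in WT2 and 0.68 in KI3, and 0.13 or less in the other 3 muscles, including WT1. Mbl2 in the muscle differed by -0.97 (standard error 0.83, adjusted p = 0.94), with 2 WT arrays and 1 Rap1 KI/KI array well above background.

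**Figure D4:**
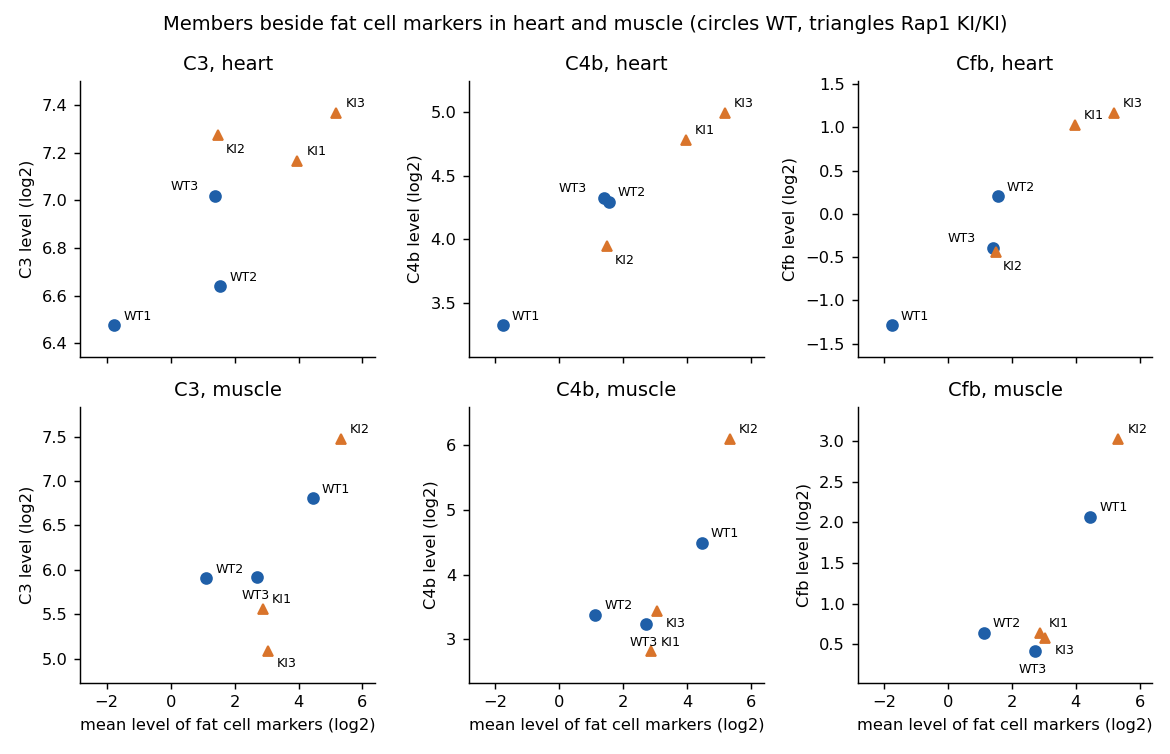
Level of C3, C4b and Cfb (log2, vertical axes) beside the mean level of the fat cell markers (log2, horizontal axis) in each heart and muscle, with WT mice as circles and Rap1 KI/KI mice as triangles. The hearts of KI1 and KI3 and the muscles of KI2 and WT1 lie to the right and hold the 2 highest levels of C4b and Cfb in their tissue.

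Within a tissue and genotype, the members varied from mouse to mouse in groups. The deviation of each array from the mean of its tissue and genotype was compared between genes over the 24 arrays, which share mice and the scaling of each array, so the coefficients are descriptions. Among the C1q chains, Pearson's r was 0.97 for C1qa with C1qb, 0.97 for C1qa with C1qc and 0.96 for C1qb with C1qc, and 0.95 to 0.96 without the brain of KI3. Among C3, C4b and Cfb it was 0.90 for C3 with C4b, 0.88 for C4b with Cfb and 0.75 for C3 with Cfb, or 0.82, 0.85 and 0.70 without that brain. Between C3 and the C1q chains it was 0.60 to 0.68, and 0.26 to 0.35 without that brain. Mbl2 had r between -0.38 and -0.17 with the other members, and -0.04 to 0.13 without it.

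Over 14012 genes tested in all 4 tissues, the genes whose deviations were most like those of C1qa were Fcer1g (r = 0.975), a signalling chain of Fc receptors in macrophages, and C1qb (0.974). For C1qb they were C1qa and C1qc, and for C1qc they were Fcer1g (0.969) and C1qa. For C3 they were Lgals3bp (0.935) and Pirb (0.934). For C4b they were H2-K1 (0.941), a class I histocompatibility gene, and Rab32 (0.937). For Cfb they were Hp (0.913), which encodes haptoglobin, and Slc6a13 (0.905). For Mbl2 they were Acsm1 (0.886) and Cyp2a4 (0.863). All of these coefficients include the brain of KI3, and the search was not repeated without it. C8a and C9 were not tested in all tissues and have no such value.

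The written lists of the pathway held no gene that passed between genotypes. In the classical and lectin list the count was 0 of 11 tested in the liver and 0 of 8 in each of the other tissues, and in the alternative list 0 of 4, 2, 4 and 3 in liver, brain, heart and muscle. In the terminal list it was 0 of 5, 4, 5 and 4, among inhibitors 0 of 11, 11, 11 and 9, and among receptors 0 of 9, 8, 9 and 9. At an unadjusted p under 0.05 these lists held Cfd (higher) and Vtn (lower) among 37 tested genes in the heart, and no gene in the other tissues. Of all probes, 2.13%, 2.62%, 7.51% and 2.48% were at that threshold in liver, brain, heart and muscle. Among marker genes, those at an unadjusted limma p under 0.05 without overlap were Aqp4 (a difference of 1.00) and Cps1 (a difference of -0.71) in brain, Aldh1l1 in heart, Adipoq in liver and S100a8, S100a9 and Rbfox3 in muscle, the last 5 all higher in Rap1 KI/KI mice. None passed after adjustment, and the exact permutation p of each was 0.1. At the same unadjusted limma threshold but with overlapping genotypes, 4 of 5 tested fat cell markers were higher in the Rap1 KI/KI hearts. There, 1 of 5 tested striated muscle markers was lower, and none of these passed after adjustment. Median differences in the brain were 0.59 for the classical and lectin list, 0.62 for the receptors and 0.18 for the inhibitors, beside -0.05 over all probes. They were 0.27 for the alternative list and 0.03 for the terminal list, and all these brain values include KI3. In the liver the medians lay between -0.14 (terminal list) and 0.05 (receptors). In the heart they lay between -0.02 (receptors) and 0.68 (alternative list), and in the muscle between -0.34 (terminal list) and 0.21 (receptors). Over all probes they were -0.02 in the heart and -0.07 in the muscle.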

How the data were processed

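Agilent Feature Extraction made the processed intensity of each spot, which the authors deposited after background subtraction and without scaling of arrays to each other. They also deposited z-scores, a score centred and scaled within an array. Here control spots and flagged outliers were dropped, spots of 1 probe were averaged, and levels were set relative to the array's 75th percentile on the log2 scale. Names come from probe accessions through RefSeq (GRCm38.p6). Where a gene had several probes, the brightest stood for it, per tissue between genotypes and over 24 arrays between tissues.

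Genotypes were compared within each tissue, and tissues over all 24 arrays (8 group means), with limma 3.58.1 in R 4.3.3 (statmod 1.5.0), two-sided, with Benjamini-Hochberg adjustment over all tested probes. Exact tests permute 20 splits of 6 mice. The number of arrays limits the precision. The same 6 mice gave all tissues. Correlations of their deviations between tissues ran from -0.30 to 0.37 over 36 pairs (median 0.07), and the consensus correlation was 0.026.

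Members, lists and the naming rule were chosen with earlier results of these data known. All members are named, with list genes at p under 0.05 without overlap (at most 4 per list and tissue) and the 3 brightest markers of a list. C2, C3ar1, C5ar1, Serping1, Cd93, Itgax, Siglech, the markers named in the check of the tissue labels and the genes named in the tissue comparison of the lists were named after their values were seen. Some list genes are counted but not reported singly here. The normexp alternative, with an offset of 50, used median foreground signals, since the files used here hold no mean signals. Alternatives were quantile normalization, normexp, the z-scores, other filters, the mean over probes, age, slide or mouse as a block or covariate, 1 fit over all arrays, WT arrays only, an unadjusted threshold, and leaving out mice or arrays. The procedures were tested on simulated data. Dixon's test was not applied to groups of 3 mice.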

Additional observations from a re-analysis of the deposited data

How the results depend on the processing

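No alternative made a member pass between genotypes at the adjusted threshold, and the heart count at an unadjusted limma p under 0.05 was 1 (C3). Of the genotype differences of single members, 438 alternative values kept their direction and 39 turned it, none of them past the threshold. After quantile normalization the liver differences of C3, Cfb and C8a were 0.027, 0.15 and 0.029 and the muscle difference of C1qb was 0.019. With normexp background correction Mbl2 was at -0.0012 in brain and -0.084 in heart and C8a at -0.19 in heart, and with the mean over its probes C8a was at -0.0036 there. Leaving out 1 mouse at a time moved the liver differences of C1qa, C1qb, C1qc, Cfb and C8a over -0.18 to 0.45, -0.20 to 0.54, -0.047 to 0.49, -0.17 to 0.036 and -0.23 to 0.025. It moved those of C1qb, C1qc and Mbl2 in brain over -0.010 to 0.90, -0.11 to 0.87 and -0.41 to 0.86, and those of C8a and Mbl2 in heart over -0.76 to 1.22 and -0.44 to 0.95. In muscle, C1qa, C1qb, C1qc, C3, C4b and Cfb moved over -0.26 to 0.41, -0.31 to 0.39, -0.53 to 0.27, -0.89 to 0.31, -0.57 to 1.07 and -0.43 to 0.89.

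Of the tissue differences, 784 alternative values kept direction and call, 30 lost the call, 18 gained it and 18 turned direction. The count between heart and muscle was 5, and it was 3 to 6 with 1 mouse left out, 2 with slide as a covariate and 3 without the muscle arrays of WT1 and KI2. Under quantile normalization, C1qa and C1qb were at -0.16 and -0.090 for liver minus brain, C1qb and C1qc at -0.015 and -0.13 for liver minus heart, and C1qb at 0.075 for brain minus heart, where the z-scores gave 0.012. With WT arrays only, C1qc was at -0.052 for liver minus heart and C1qa at -0.40 for brain minus heart. Without the brain of KI3, C1qa was at -0.16 for brain minus heart and Mbl2 at 0.053 for brain minus muscle. C8a for heart minus muscle was at -0.088 with normexp and -0.0057 with slide as a covariate. With 1 mouse left out, brain minus heart ran over -0.26 to 0.46 for C1qa and -0.49 to 0.15 for C1qb, brain minus muscle over -0.89 to 0.50 for Mbl2, and heart minus muscle over -0.010 to 1.02 for C4b. The cause was not tested. With slide as a covariate, the differences of C1qb and C1qc between liver and muscle, which shared no slide, were 1.82 and 1.70 and no longer passed, nor did C1qb between brain and muscle (1.25) and C1qc between heart and muscle (1.23) and brain and heart (-0.79). The median of all probes for liver minus brain was 0.35, and 0.18 after quantile normalization, and for liver minus muscle it was -0.06, and -0.43 with normexp. With mouse as a replicate block, the C3 heart difference stayed at 0.56 and no call changed. The slide covariate and the runs without single arrays were chosen after seeing the data.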
